A study of Mus musculus with 3 samples.

Results

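The proteasome subunit genes were taken by name as the genes of the count table that begin with Psma, Psmb, Psmc, Psmd, Psme, Psmf or Psmg followed by a digit, without the immunoproteasome genes Psmb8, Psmb9 and Psmb10. The rule found 47 of 17168 genes. They were 8 genes of the alpha ring, 3 of the standard catalytic beta subunits and 5 others of the beta ring. Another 6 were of the ATPase ring and 11 of the rest of the regulatory particle. A further 6 were of activators and an inhibitor, and 7 of assembly chaperones. The last was Psmc3ip, a recombination factor that matches the name and is no subunit. Of the 47, 45 passed the filter on low counts. The other two were Psma8, a testis isoform of the alpha ring with 22 UMIs (unique molecular identifiers, 1 per captured transcript), and Psmb11, a subunit of thymic epithelium with 3 UMIs.

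The proteasome is the protease that degrades proteins tagged with ubiquitin. Its barrel, the core particle, stacks rings of alpha subunits around rings of beta subunits, and Psmb5, Psmb6 and Psmb7 encode the catalytic beta subunits with chymotrypsin-like, caspase-like and trypsin-like activity. A regulatory particle with a ring of ATPases recognises, unfolds and feeds in the substrate, while the activator PA28, made of Psme1 and Psme2, opens the barrel without ATP. In leukocytes the peptides it makes supply MHC class I, and interferon gamma is known to induce PA28 and the immunoproteasome genes, whose products replace the catalytic subunits.

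The cells were CD45+ leukocytes from collagenase-digested sciatic nerves of NOD.AIRE GW/+ mice aged 15 weeks, the only genotype analysed here. NOD mice are prone to autoimmunity, and 1 of their copies of Aire, a gene for display of peripheral antigens in the thymus, is altered here. Library 1 (6033 cells) and library 2 (2333 cells) were 3′ libraries and library 3 (3274 cells) was a 5′ library, so a library and its chemistry cannot be told apart. Nothing in the labels says whether the libraries came from separate animals. The p-values rest on how much the differences between classes varied over these 3 libraries, after shifts common to a library were removed. That spread was shared over all groups of a fit. Wild-type nerves were not analysed here, so each comparison below is between cell classes of the same nerves. The authors' table divides the 11640 cells into 10 classes and 14 clusters. Of these, 8 classes had at least 20 cells in every library and were tested: conventional dendritic cells (cDC), macrophages (Mac), CD8 T cells, regulatory T cells (Treg), a class of gamma-delta T, NK and NKT cells, CD4 T cells, B cells, and a class named Mixed whose cells carried Il17a, Trdv4 and Cd163l1. Plasmacytoid dendritic cells (pDC) and plasma cells were too few for the test. The classes were defined by the authors from the same counts.

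The libraries held 22587246, 11398628 and 13791264 UMIs, with medians of 3011, 4156 and 3713 per cell. The listed markers of each class were highest in that class, with 3 exceptions: Flt3 and Cd209a of the cDC list were higher in pDC, and Cd40lg of the CD4 list was higher in Mixed cells. Of cells outside the gate, the fibroblast genes Col1a1 and Dcn had 12 and 2 UMIs, and the erythrocyte gene Hba-a1 had 24. Between libraries, 6 cell barcodes were shared.

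Short stretches of 3 promoters are shown because Psme1 encodes PA28 alpha and Psmb5 and Psmb6 encode catalytic subunits, and because their starts hold a core motif in capitals. The letters are from RefSeq on GRCm38.p6, 5′ to 3′ on the gene's strand.
Psme1, chr14:55578490-55578518, plus strand: tttcgagctgtgcTTTCGCTTTCccttcc
Psmb5, chr14:54617996-54618055, minus strand: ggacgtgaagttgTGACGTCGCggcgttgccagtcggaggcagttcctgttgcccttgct
Psmb6, chr11:70525337-70525361, plus strand: actaaagagagTGACGGAGCgcttt
In Psmb5 and Psmb6 the capitals mark TGACNNNGC, the core of the antioxidant response element, which the factors of the Nfe2l1 and Nfe2l2 family are known to bind. In Psme1 they mark the core of the interferon-stimulated response element, which lies on the opposite strand. Promoter windows of 250 bases before to 50 after the start were found for 39 members and searched on both strands. TGACNNNGC lay in 6 of 39 (15.4%) against 14.0% of 27025 promoters, with the matches in Psmb5, Psmb6, Psmc6, Psmd9, Psmd12 and Psme4. The CCAAT box, CCAAT, lay in 14 of 39 (35.9%) against 41.1%, and TTCNNNGAA, the interferon-gamma-activated site, in 2 of 39 (5.13%) against 9.55%. The interferon-stimulated core, a motif added after the data were seen, lay in 5 of 39 (12.8%) against 3.99%, in Psmb3, Psmd4, Psmd9, Psme1 and Psmg4. A match is only a match of letters.

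As a share of all UMIs, the 47 genes together were highest in cDC and lowest in plasma cells. The cDC share was 0.786% in library 1, 0.693% in library 2 and 0.713% in library 3, a mean of 0.731% ± 0.049 (SD, n = 3). Treg followed with 0.633% ± 0.068, pDC with 0.610% ± 0.045 and macrophages with 0.600% ± 0.113. The pDC value rests on few cells, 58.3 ± 74.6 per library (mean ± SD). In pDC of library 2 Psme1 had 9 UMIs, against 484 in library 1. CD8 cells had 0.567% ± 0.042, the gamma-delta T, NK and NKT class 0.551% ± 0.048, CD4 cells 0.545% ± 0.059 and the Mixed class 0.517% ± 0.078. B cells had 0.472% ± 0.046, and plasma cells 0.295% ± 0.075. Macrophages varied most, from 0.501% in library 2 to 0.724% in library 3, where they passed cDC at 0.713%. From Treg down to B cells, neighbouring classes did not differ beyond their spread, although within each library CD8 cells were above the gamma-delta T, NK and NKT class and Mixed cells above B cells. Plasma cells were below the other 9 classes in each library, at 0.334%, 0.343% and 0.209%, from 7, 12 and 35 cells. Without mitochondrial and ribosomal protein UMIs, which made 34.2% ± 5.21 of UMIs in B cells and 20.6% ± 2.94 in macrophages, cDC stayed highest at 0.970% and Treg was close to CD8 cells, at 0.814% and 0.818%. In bulk sums such as these, more UMIs of other genes and fewer of the members cannot be told apart.

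**Figure D1:**
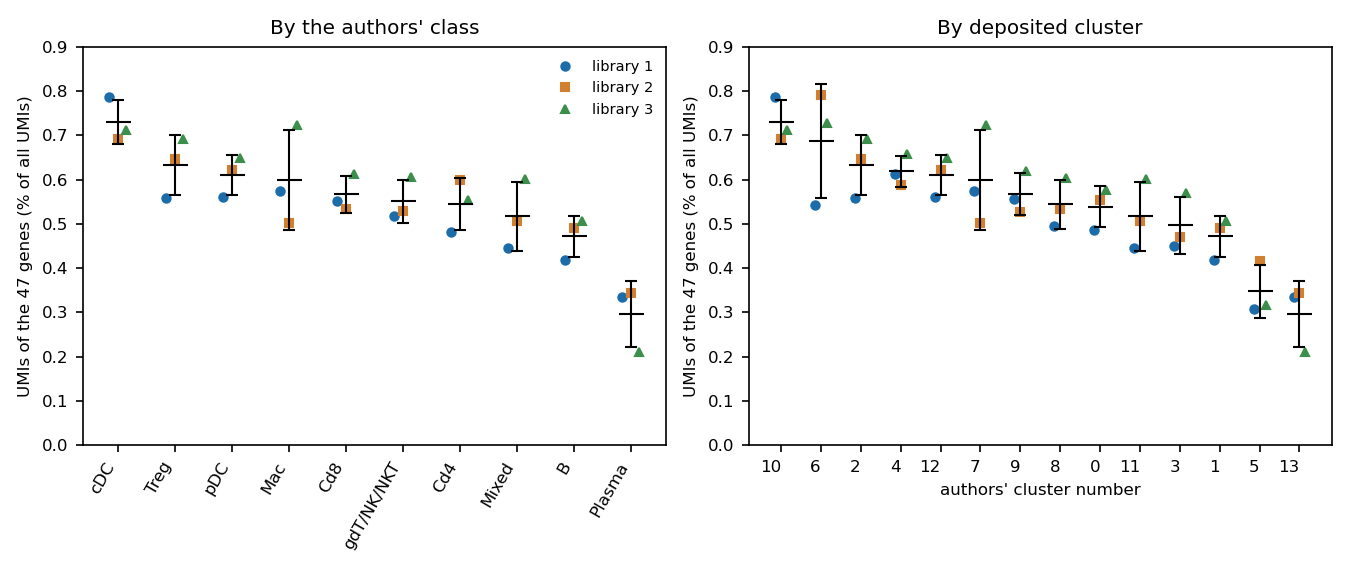
UMIs of the 47 genes as a percent of all UMIs, by the authors' class (left) and by deposited cluster (right). Each point is 1 library, and bars are the mean ± SD over 3 libraries. cDC (cluster 10) have the highest mean, 0.731%, and plasma cells (cluster 13) the lowest, 0.295%.

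Part of the rank of cDC came from PA28. Psme1 and Psme2 together made 0.179% ± 0.015 of the UMIs of cDC and 0.129% ± 0.064 of those of macrophages, and their mean in the other 8 classes lay between 0.026% and 0.091%. Without PA28, cDC (0.551% ± 0.056) and Treg (0.551% ± 0.052) had the same share to 3 digits, and macrophages (0.471% ± 0.049) lay beside CD8 cells (0.478% ± 0.007).

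In cDC, 23 of the 45 members tested rose against the mean of the other 7 classes, where 20.8% of all genes rose and 19.0% fell. None fell in edgeR's test, none had a lower value at an unadjusted p under 0.05, and none fell with DESeq2. The members' median log2 fold change was 0.42, and that of all genes was −0.11. PA28 led: Psme2 rose by 1.48 ± 0.13 (log2 fold change ± SE, adjusted p = 4.22e-10) and Psme1 by 1.12 ± 0.10 (adjusted p = 1.07e-09). The core barrel followed, with 5 of 7 tested alpha-ring genes, all 3 catalytic genes and 2 of 4 structural beta genes. Of the regulatory particle, 2 of 6 ATPase genes and 6 of 11 other genes rose. Psme1, Psme2 and the inhibitor gene Psmf1 were called among 6 activators and inhibitors, and Psmg1 and Psmg4 among 7 assembly chaperones.

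Psme1 stood at 1157, 1038 and 967.5 CPM (UMI counts scaled to a common library total with TMM factors) in cDC of libraries 1, 2 and 3. Macrophages had 836, 626.1 and 928.8 CPM, and the highest value in the 6 lymphoid classes was 636.7, in CD8 cells of library 3. Every cDC library was above every library of the other classes. Macrophages of library 2 were below CD8 cells of library 3, but within each library macrophages were above all 6 lymphoid classes.

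Psme2 stood at 867.5, 836.3 and 921.9 CPM in cDC, and at 608.5, 420.4 and 1163 in macrophages. In lymphoid classes it ran from 127.9 in B cells of library 2 to 565.9 in Mixed cells of library 3. cDC and macrophages overlapped here through library 3, in which Psme2 was highest in all 8 classes.

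**Figure D2:**
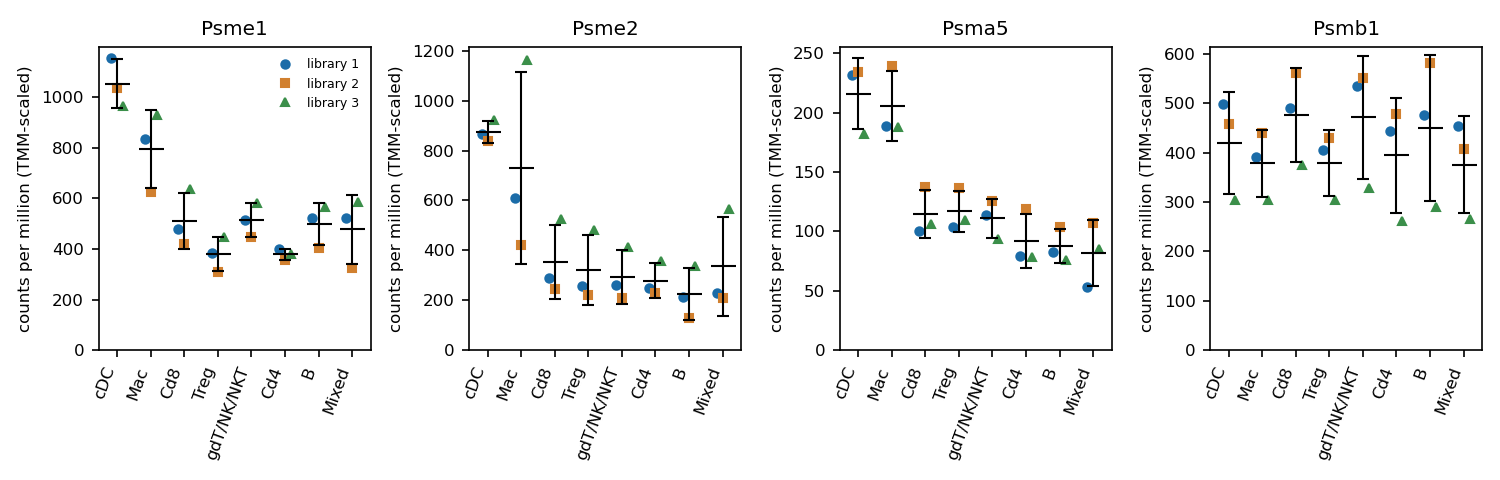
Levels of Psme1, Psme2, Psma5 and Psmb1 in CPM (TMM-scaled) in the 8 tested classes. Points are libraries and bars the mean ± SD (n = 3). Psma5 is above 182 CPM in each cDC and macrophage library and below 138 in each lymphoid one, whereas Psmb1 overlaps between all classes.

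Among alpha-ring genes, Psma4 rose in cDC by 1.03 ± 0.12 (adjusted p = 1.24e-07), Psma5 by 1.01 ± 0.11 (adjusted p = 5.6e-08) and Psma6 by 0.87 ± 0.14 (adjusted p = 1.78e-05). Psma5 stood at 232.2, 234.3 and 182.1 CPM in cDC and at 189, 239.8 and 187.8 in macrophages, against 52.86 to 137.8 in the lymphoid classes. The myeloid and lymphoid values did not overlap. The catalytic genes rose less, Psmb7 by 0.64 ± 0.15 (adjusted p = 0.00109), Psmb6 by 0.63 ± 0.12 (adjusted p = 9.96e-05) and Psmb5 by 0.43 ± 0.13 (adjusted p = 0.0119). Psmb5 was at 279.4 CPM in cDC of library 1 and at 165.8 and 178.3 in libraries 2 and 3, where Treg had 190.9 and 186.8. Psmf1, whose product PI31 inhibits the barrel in vitro, was higher by 0.62 ± 0.21 (adjusted p = 0.0204). The nuclear activators Psme3 (−0.07 ± 0.20, adjusted p = 0.823) and Psme4 (0.27 ± 0.26, adjusted p = 0.443) were not called.

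Library 1 held 232 of the cDC, against 28 and 34 in libraries 2 and 3, and the calls leaned on it. Calls over all genes also fell without it, from 39.8% to 19.9%. Without library 1 there were 10 member calls, all higher, where 14.6% of all genes rose. They were Psma1, Psma4, Psma5, Psma6, Psma7, Psmb2, Psmb6, Psmd8, Psme1 and Psme2. The value of Psmb5 fell to 0.26 (adjusted p = 0.37), that of Psmb7 was 0.55 (adjusted p = 0.099) and that of Psmf1 was 0.65 (adjusted p = 0.22). Without library 2 there were 26 calls (32.8% of all genes) and without library 3 there were 23 (37.1% of all genes). The 10 genes named were called each time. Of the 23, 6 pointed the same way in 2 of the 3 libraries only, Psmc2, Psmd3, Psmd6, Psmf1, Psmg1 and Psmg4.

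In macrophages, 17 members rose and 2 fell, where 25.8% of all genes rose and 22.1% fell. The members' median was 0.28 and that of all genes −0.08. The calls again lay in the barrel, with 5 of 7 alpha-ring, 2 of 3 catalytic and 2 of 4 structural beta genes, and in 4 of 6 activators and inhibitors. They also held 3 of 11 other genes of the regulatory particle and 1 of 7 assembly chaperones. Of 6 genes of the ATPase ring none was called by edgeR, 1 was higher at an unadjusted p under 0.05, and DESeq2 called 1 higher. Psme2 rose by 1.01 ± 0.12 (adjusted p = 1.78e-07), Psme4, the activator PA200, by 0.92 ± 0.22 (adjusted p = 0.000899) and Psma5 by 0.88 ± 0.10 (adjusted p = 8.3e-08). Psma7 rose by 0.87 ± 0.11 (adjusted p = 3.45e-07), Psma4 by 0.68 ± 0.11 (adjusted p = 2.12e-05) and Psme1 by 0.62 ± 0.10 (adjusted p = 1.09e-05). Of the catalytic genes, Psmb7 rose by 0.65 ± 0.13 (adjusted p = 0.000208) and Psmb6 by 0.56 ± 0.11 (adjusted p = 9.82e-05). Psmb5 had 0.30 ± 0.12 (adjusted p = 0.0533) and Psme3 −0.11 ± 0.17 (adjusted p = 0.656), neither called.

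Psme4 stood at 61.11, 41.45 and 47.71 CPM in macrophages. In B cells it had 55.98, 63.96 and 16.06 CPM, and in the other 6 classes between 9.655 and 53.14. Macrophages and B cells overlapped, since B cells were above macrophages in library 2 and below them in libraries 1 and 3.

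The 2 genes that fell in macrophages were chaperones of assembly. Psmd5, which helps to build the ATPase ring, fell by 0.81 on the log2 scale (SE 0.29, adjusted p = 0.0222). It had 8.73, 7.401 and 20.87 CPM in the 3 libraries, from 17, 5 and 14 UMIs. The mean over the other classes and all libraries was 19.97 CPM, and Psmd5 was highest in library 3 in 6 of 8 classes. Within each library it was lower in macrophages than the mean log level of the other classes. Psmg2, a chaperone of the alpha ring, fell by 0.58 (SE 0.18, adjusted p = 0.00955), to 21.05, 16.28 and 29.82 CPM against 33.76 over the other classes. Neither was called without library 1 (−0.59, adjusted p = 0.27 for Psmd5, and −0.59, adjusted p = 0.078 for Psmg2) nor without library 2 (−0.69, adjusted p = 0.065, and −0.52, adjusted p = 0.062). Psmf1, higher by 0.46 ± 0.18 (adjusted p = 0.0379), was likewise lost without library 1 (0.37, adjusted p = 0.30) and without library 2 (0.41, adjusted p = 0.11). Whichever library was left out, 12 of the 19 calls were kept.

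The macrophage calls depended on the scaling. With library totals in place of TMM, the median of all genes moved by −0.33, and 8 members were called higher and 7 lower, where 18.7% of all genes were called higher and 38.5% lower. Psma2, called higher by 0.26 ± 0.10 (adjusted p = 0.038) with TMM, then had −0.07. Psme2 (0.68), Psme4 (0.60), Psma5 (0.54), Psma7 (0.53), Psma4 (0.34) and Psme1 (0.29) were called higher with both. Psmb7 (0.31) and Psmb6 (0.22) were not called with library totals.

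Set directly against cDC, macrophages differed in 1 member, where 12.3% of all genes were higher in macrophages and 7.55% lower. Psme1 was lower in macrophages by 0.43 on the log2 scale (SE 0.14, adjusted p = 0.0299). Without library 1 its difference was −0.55 (adjusted p = 0.15) and without library 2 −0.37 (adjusted p = 0.21), neither called. Calls over all genes also fell, from 19.8% to 7.68% without library 1 and to 13.2% without library 2. Psme2 had −0.41 ± 0.18 (adjusted p = 0.119) and Psme4 0.57 ± 0.31 (adjusted p = 0.23). No member was higher in macrophages with edgeR, at an unadjusted p under 0.05 (0 members) or with DESeq2 (0 members).

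**Figure D3:**
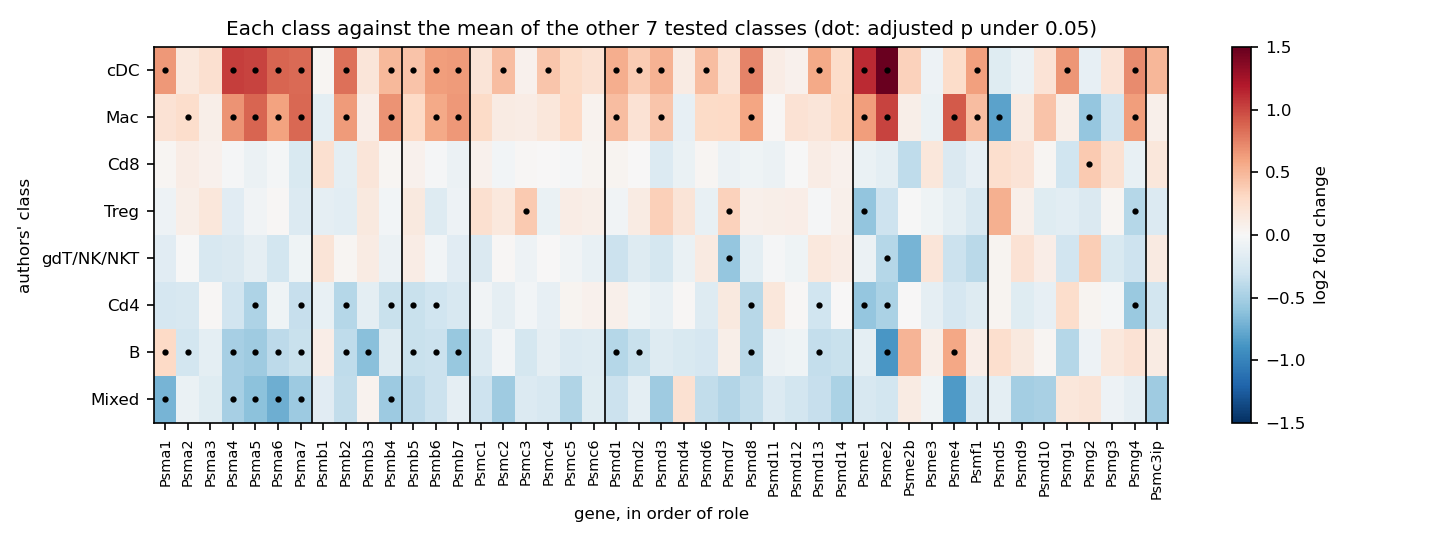
Log2 fold change of the 45 tested genes (columns, in order of role) in 1 class set against the average of the 7 others (rows), with TMM scaling. Black dots mark an adjusted p under 0.05. The cDC row has 23 dots, all higher, and the B row 15 lower and 2 higher.

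In B cells, 15 members fell and 2 rose, where 16.4% of all genes fell and 20.8% rose. For each lymphoid class, the mean of the others includes cDC and macrophages, so a fall is not against lymphoid classes alone. The members' median was −0.19 and that of all genes 0.03. All 3 catalytic genes and 5 of 7 alpha-ring genes were among those that fell. Psme2 fell by 0.87 (SE 0.15, adjusted p = 4.12e-05), to 211.9, 127.9 and 335.8 CPM, the lowest value of the 8 classes in each library. Psmb3 fell by 0.63 (SE 0.11, adjusted p = 9.86e-05), Psmb7 by 0.57 (SE 0.14, adjusted p = 0.0023) and Psma5 by 0.53 (SE 0.12, adjusted p = 0.000668). These 4 genes were called whichever library was left out. Psma4 fell by 0.50 (SE 0.13, adjusted p = 0.00251) and had −0.48 (adjusted p = 0.068) without library 1. Psmb5 and Psmb6 fell by 0.33 and 0.32 (adjusted p = 0.0455 and 0.0302), and neither was called when any 1 library was left out (adjusted p from 0.078 to 0.30 for Psmb5 and from 0.12 to 0.17 for Psmb6).

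Psmb3, a structural beta subunit, had 148.9, 187.5 and 209.3 CPM in B cells. Over the other classes it ran from 193.8 to 352.5 CPM, and within each library B cells had the lowest value. Psme1, the partner of Psme2, was not called in B cells (−0.14 ± 0.11, adjusted p = 0.318). Of the pair that rose, Psme4 had 0.58 ± 0.20 (adjusted p = 0.0261) and Psma1 0.30 ± 0.10 (adjusted p = 0.0228). Both were called without library 3 (0.74, adjusted p = 0.0061 for Psme4 and 0.37, adjusted p = 0.025 for Psma1). Psme4 had 0.70 (adjusted p = 0.18) without library 1 and 0.44 (adjusted p = 0.11) without library 2, and Psma1 had 0.29 without either (adjusted p = 0.20 and 0.11). With library totals in place of TMM, 19 members fell and none rose (1 higher at an unadjusted p under 0.05), where 19.0% of all genes fell and 16.4% rose. Leaving out dividing cells, those with a UMI of Mki67 or Top2a, brought the B cell count to 8 lower and 2 higher. Of all genes, 14.8% then fell and 22.4% rose.

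In CD4 T cells, 11 members fell and none rose (edgeR; 0 at an unadjusted p under 0.05 and 0 with DESeq2), where 10.7% of all genes fell and 19.8% rose. Psme1 fell by 0.58 (SE 0.11, adjusted p = 0.000195) and had 399.3, 355.8 and 381 CPM. The chaperone gene Psmg4 fell by 0.56 (SE 0.14, adjusted p = 0.00331), Psme2 by 0.48 (SE 0.14, adjusted p = 0.00993), Psma5 by 0.46 (SE 0.11, adjusted p = 0.00139) and Psmb2 by 0.43 (SE 0.11, adjusted p = 0.00544). Psma5 and Psme1 were called whichever library was left out, and without library 1 they were the only calls. Without that library Psmg4 had −0.54 (adjusted p = 0.055), Psme2 −0.54 (adjusted p = 0.080) and Psmb2 −0.41 (adjusted p = 0.073). Without library 3 there were 6 calls. Psmb5 and Psmb6 fell by 0.33 and 0.30 (adjusted p = 0.0392 and 0.0363). Without library 1 they had −0.24 and −0.32 (adjusted p = 0.31 and 0.14), and without library 3 both had −0.28 (adjusted p = 0.19 and 0.16). Without library 2 Psmb6 had −0.37 (adjusted p = 0.061). Psmb7 was not called (−0.24 ± 0.12, adjusted p = 0.137).

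The CD4 class held cluster 5, 973 cells with few UMIs, a mean of 898 for the library medians against 3310 in cluster 0. Its share of member UMIs was 0.308%, 0.417% and 0.316%, below every other cluster of T cells in each library. Without it, 6 members fell in CD4 cells and none rose, where 10.6% of all genes fell and 16.2% rose. With library totals in place of TMM the median of all genes moved by 0.16, and 3 members fell and 2 rose, where 6.36% of all genes fell and 30.4% rose.

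Treg had the second highest share but few calls: 2 members rose and 2 fell, where 15.8% of all genes rose and 9.43% fell. Psmc3, an ATPase gene, rose by 0.39 ± 0.11 (adjusted p = 0.00913) and Psmd7, of the lid of the regulatory particle, by 0.34 ± 0.12 (adjusted p = 0.0456). Psme1 fell by 0.59 (SE 0.11, adjusted p = 0.000194), to 385, 310.4 and 446.2 CPM, and was called whichever library was left out. Psmg4 fell by 0.43 (SE 0.15, adjusted p = 0.0367). Psmc3 had 0.34 (adjusted p = 0.12) without library 2 and 0.33 (adjusted p = 0.072) without library 3. The call of Psmd7 was lost when any library was left out (adjusted p = 0.078, 0.19 and 0.25 without libraries 1, 2 and 3), and Psmg4 was lost without library 1 (−0.43, adjusted p = 0.18) and library 2 (−0.46, adjusted p = 0.12). With relative log expression factors in place of TMM, 2 members rose and 2 fell (15.8% and 9.83% of all genes). DESeq2 also called 2 higher and 2 lower (14.6% and 10.7% of all genes). With library totals the median of all genes moved by 0.23. There 16 members rose and 1 fell, where 28.0% of all genes rose and 5.30% fell.

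The Mixed class had the lowest mean of the 8 classes for 24 of 45 members, a count not made over all genes. In the test 6 fell and none rose (edgeR; 0 at an unadjusted p under 0.05 and 0 with DESeq2), where 4.68% of all genes fell and 8.48% rose. The members' median was −0.31, that of all genes −0.04, and 19 had a lower value at an unadjusted p under 0.05. Of the 6, 5 were of the alpha ring. Psma6 fell by 0.73 (SE 0.19, adjusted p = 0.00738), Psma1 by 0.70 (SE 0.14, adjusted p = 0.000955), Psma5 by 0.61 (SE 0.15, adjusted p = 0.00478), Psmb4 by 0.54 (SE 0.16, adjusted p = 0.0196) and Psma7 by 0.54 (SE 0.14, adjusted p = 0.00826). Psma1 had 112.8, 101.2 and 71.43 CPM, the lowest of the 8 classes in each library, and was called whichever library was left out. Without library 1 it was the only call, and the other four named had −0.57, −0.45, −0.33 and −0.55 (adjusted p = 0.14, 0.13, 0.33 and 0.094). Without cluster 5 there were 11 lower calls in this class, where 5.65% of all genes fell and 8.21% rose.

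CD8 T cells and the gamma-delta T, NK and NKT class had few calls. In CD8 cells 1 member rose and none fell, where 17.7% of all genes rose and 10.2% fell. No member had a lower value at an unadjusted p under 0.05, and DESeq2 called 1 lower. The gene was Psmg2 (0.40 ± 0.12, adjusted p = 0.0166), with 38.52, 30.22 and 56 CPM, and it had 0.35 without library 1 (adjusted p = 0.16) and 0.35 without library 3 (adjusted p = 0.12). In the gamma-delta T, NK and NKT class 2 members fell and none rose, where 10.5% of all genes fell and 14.9% rose. At an unadjusted p under 0.05, 2 had a higher and 8 a lower value. DESeq2 called none higher and 3 lower (13.4% and 12.1% of all genes). The members' median was −0.09 and that of all genes 0.03. Psmd7 fell by 0.58 (SE 0.13, adjusted p = 0.00207), to 74.76, 69.45 and 44.43 CPM, and was called whichever library was left out. Psme2 fell by 0.43 (SE 0.14, adjusted p = 0.0243) and had −0.48 without library 1 (adjusted p = 0.13) and −0.45 without library 2 (adjusted p = 0.081). With library totals 1 member was called higher and 2 lower (16.0% and 9.50% of all genes), and with relative log expression factors 1 higher and 3 lower (14.0% and 11.2% of all genes).

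The members did not follow a single pattern. Over the 8 class means, the gene most like the sum of the other members was Psma5 (Pearson r = 0.99), followed by Psma4 (0.99) and Psmb6 (0.98). Psmb1, a structural beta gene, had −0.12, Psmd5 −0.68 and Psmg2 −0.73. The 8 points share the same 3 libraries and lean on cDC and macrophages, so these values are a description. cDC had the highest mean for 20 members and macrophages for 11, counts that were not made over all genes. Psmb1 ran from a mean of 376 CPM in Mixed cells to 476 in CD8 cells, each class within the range of the others, and its difference in cDC was 0.03.

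For some members 1 library was highest or lowest in every tested class. Psme2, Psme3 and Psmd2 were highest in library 3 in all 8 classes, and Psma1, Psma4, Psmb1, Psmd7, Psmg4 and Psme2b were lowest there in all 8. In library 2, a 3′ library, Psma5 was highest in all 8 classes and Psmc1 and Psme2 were lowest in all 8. In macrophages Psmg4 had 138.6, 140.6 and 41.74 CPM. The fit compared classes within a library, so such shifts do not enter the contrasts as long as they are equal for all classes, which was not tested.

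Within the CD8 class, cluster 4 was set against cluster 3, the former with more dividing cells: 32.7% ± 7.98 of its cells had a UMI of Mki67 or Top2a, against 12.9% ± 0.78. In cluster 4, 8 members rose and none fell, where 7.87% of all genes rose and 6.85% fell. The members' median was 0.31 and that of all genes 0.00. At an unadjusted p under 0.05, 21 had a higher and 1 a lower value, and DESeq2 called 16 higher and none lower. The 8 were Psma4, Psma5, Psmb2, Psmb6, Psmb7, Psmd1, Psmd8 and Psmd13, all of the barrel or the regulatory particle, and no activator or chaperone was called by edgeR or DESeq2 (1 activator lower and 1 chaperone higher at an unadjusted p under 0.05). Psma4 rose by 0.87 ± 0.15 (adjusted p = 5.15e-05), with 260, 205.4 and 163.4 CPM in cluster 4 and 125.1, 120.3 and 95.65 in cluster 3. The values of the clusters did not overlap.

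Psmd1, a scaffold subunit of the regulatory particle, rose by 0.77 ± 0.18 (adjusted p = 0.00305), from 43.19, 33.47 and 47.83 CPM in cluster 3 to 73.84, 71.55 and 65.49 in cluster 4. Psma5 rose by 0.60 ± 0.19 (adjusted p = 0.0259), Psmb7 by 0.56 ± 0.18 (adjusted p = 0.0258), Psmb2 by 0.54 ± 0.17 (adjusted p = 0.0235) and Psmb6 by 0.44 ± 0.15 (adjusted p = 0.0346). Each of the 8 was higher in cluster 4 in all 3 libraries. Only Psma4 was called whichever library was left out. Without library 2 it was the only call, and Psmd1 had 0.63 (adjusted p = 0.098), Psma5 and Psmb7 0.55 (adjusted p = 0.22 and 0.15), Psmb2 0.50 (adjusted p = 0.22) and Psmb6 0.41 (adjusted p = 0.24). Without library 1 Psma4 and Psmd1 were called. Psme1 (−0.26 ± 0.13, adjusted p = 0.222) and Psme2 (−0.01 ± 0.16, adjusted p = 0.993) were not.

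Without dividing cells, 3 of the 8 were called, where 5.31% of all genes rose and 5.62% fell, and the members' median was 0.26: Psma4 (0.81, adjusted p = 0.00025), Psmd8 (0.55, adjusted p = 0.0093) and Psmd1 (0.60, adjusted p = 0.037). Psma5 then had 0.60, Psmb2 0.48, Psmb7 0.43 and Psmb6 0.35, with adjusted p from 0.050 to 0.14. Median UMIs per cell were also higher in cluster 4, 5112 ± 874 against 3911 ± 802 over libraries, and the part of division and of depth in the result was not tested.

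Within the CD4 class, cluster 6 was set against cluster 0. In cluster 6, 4 members rose and none fell, where 3.03% of all genes rose and 3.89% fell. At an unadjusted p under 0.05, 13 had a higher and 3 a lower value, and DESeq2 called 10 higher and 1 lower. Psmd1 rose by 0.78 ± 0.18 (adjusted p = 0.00365), Psma1 by 0.77 ± 0.14 (adjusted p = 0.000208), Psmd7 by 0.69 ± 0.19 (adjusted p = 0.0145) and Psmb3 by 0.52 ± 0.16 (adjusted p = 0.0367). Psma1 had 182.1, 270.5 and 155.4 CPM in cluster 6 and 124.6, 129 and 99.88 in cluster 0, with no overlap.

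Library 2 was the highest for Psma1, Psmd1 (109.7 CPM) and Psmd7 (213.4 CPM) in cluster 6, and its share of member UMIs, 0.792%, was above the 0.543% and 0.728% of libraries 1 and 3. Without library 2 no member was called in edgeR's test, where 1.45% of all genes rose and 2.03% fell. Psma1 and Psmd1 then had 0.56 (adjusted p = 0.14 and 0.32), Psmd7 0.40 (adjusted p = 0.57) and Psmb3 0.37 (adjusted p = 0.47). Psmb3 was also lost without library 1 (0.63, adjusted p = 0.092) and without library 3 (0.51, adjusted p = 0.18). The catalytic genes Psmb5 (0.21 ± 0.16, adjusted p = 0.601), Psmb6 (0.38 ± 0.15, adjusted p = 0.147) and Psmb7 (0.41 ± 0.18, adjusted p = 0.216) were not called.

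**Figure D4:**
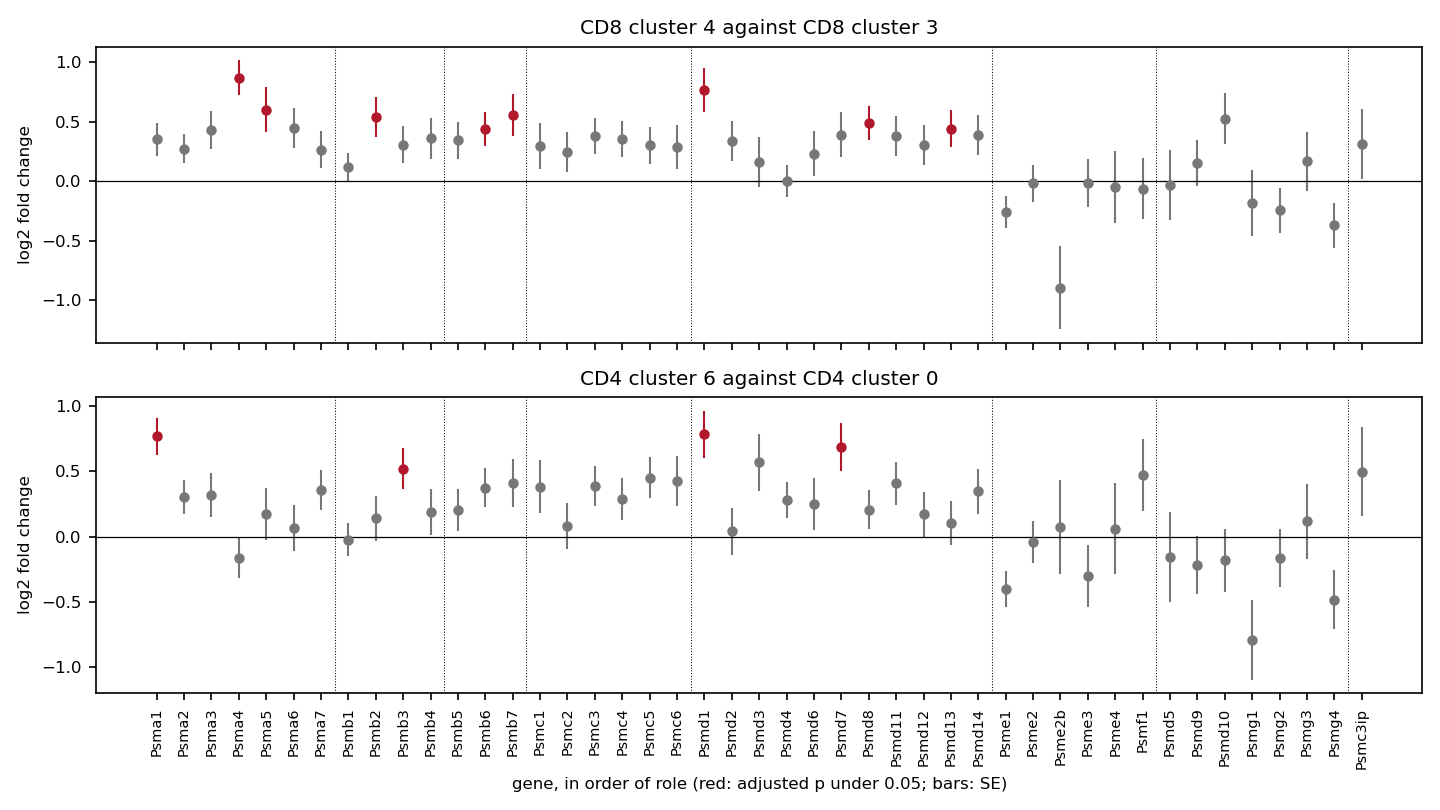
Log2 fold change ± SE of the 45 tested genes, in order of role, for CD8 cluster 4 against cluster 3 (top) and CD4 cluster 6 against cluster 0 (bottom). Red marks an adjusted p under 0.05, 8 genes in the top panel and 4 in the bottom one, of which Psmd1 is red in both.

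The counterparts Psmb8, Psmb9 and Psmb10 supplied most catalytic UMIs in every class. As a percent of the UMIs of the 6 catalytic genes they made 81.8% ± 3.28 in cDC, 81.0% ± 0.81 in B cells, 80.1% ± 3.13 in Mixed cells, 78.4% ± 2.16 in macrophages, 77.7% ± 1.86 in CD8 cells and 75.9% ± 2.02 in the gamma-delta T, NK and NKT class. CD4 cells had 75.5% ± 1.40, pDC 74.9%, Treg 74.0% ± 1.44 and plasma cells 73.5%. In pDC of library 2, Psmb5, Psmb6 and Psmb7 had only 5, 3 and 0 UMIs. Neighbours in this order did not differ beyond their spread, although within each library Mixed cells were above macrophages and CD8 cells above the gamma-delta T, NK and NKT class. In cDC all 3 rose, Psmb9 by 0.99 ± 0.11, Psmb10 by 0.94 ± 0.12 and Psmb8 by 0.88 ± 0.11 (adjusted p = 1.11e-07, 4.28e-07 and 8.79e-07), each called whichever library was left out. In macrophages Psmb10 rose by 1.29 ± 0.11 (adjusted p = 1.26e-10), Psmb9 by 0.46 ± 0.11 (adjusted p = 0.00151) and Psmb8 by 0.31 ± 0.12 (adjusted p = 0.0307, and 0.33 without library 1). In CD4 cells Psmb10 fell by 1.12 (SE 0.12, adjusted p = 1.21e-07), to 114.2, 106.4 and 91.63 CPM, the lowest of the 8 classes in each library.

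In the CD8 pair the balance shifted the other way from the sum. The immunoproteasome percent was 79.4%, 81.7% and 81.3% in cluster 3 and 73.8%, 77.0% and 75.5% in cluster 4, with no overlap. Psmb10 fell in cluster 4 by 0.51 (SE 0.16, adjusted p = 0.0267) while Psmb8 (−0.08 ± 0.15, adjusted p = 0.809) and Psmb9 (0.36 ± 0.15, adjusted p = 0.113) were not called. The Psmb10 call was lost without library 1, 2 or 3 (adjusted p = 0.18, 0.10 and 0.066).

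Of 30 other genes of the ubiquitin-proteasome pathway, all tested, 12 (40.0%) rose and 1 (3.33%) fell in cDC, against 20.8% and 19.0% of all genes. In macrophages 11 (36.7%) rose and 2 (6.67%) fell, against 25.8% and 22.1% of all genes. In B cells 8 (26.7%) were higher and 4 (13.3%) lower, against 20.8% and 16.4% of all genes. CD4 cells had 2 (6.67%) higher and 7 (23.3%) lower, against 19.8% and 10.7%. CD8 cells had 3 (10.0%) and 5 (16.7%), against 17.7% and 10.2%. Treg had 3 (10.0%) and 7 (23.3%), against 15.8% and 9.43%. Mixed cells had 0 and 3 (10.0%), against 8.48% and 4.68%. The gamma-delta T, NK and NKT class had 1 (3.33%) and 5 (16.7%), against 14.9% and 10.5%. Nfe2l2, a stress factor that can induce proteasome genes, rose by 4.17 ± 0.12 in macrophages (adjusted p = 7.93e-20) and by 2.81 ± 0.16 in cDC (adjusted p = 1.17e-13). It had 756.9, 537.3 and 582.9 CPM in macrophages, 278.2, 245.1 and 322.5 in cDC, and at most 76.17 in the lymphoid classes. Pomp, which matures the barrel, rose by 1.56 ± 0.11 in cDC (adjusted p = 2.1e-11), to 864.5, 602 and 553.9 CPM. It fell in B cells by 0.68 (SE 0.13, adjusted p = 0.000173) and in CD4 cells by 0.64 (SE 0.12, adjusted p = 0.000238). Sem1, a small lid subunit, rose in macrophages by 1.21 ± 0.09 (adjusted p = 1.74e-11) and fell in B cells by 0.56 (SE 0.10, adjusted p = 0.000137). The ubiquitin gene Rps27a, which also encodes a ribosomal protein, fell in Treg by 0.75 (SE 0.08, adjusted p = 6.01e-08) and in CD4 cluster 6 by 0.88 (SE 0.11, adjusted p = 5.57e-07). Each value in this paragraph that is given with a p was called whichever library was left out.

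Some genes overlap others in the annotation (GENCODE M21), on the opposite strand for Psma4, Psma5, Psmb7, Psmc3, Psmc3ip, Psmd1, Psmd3, Psmd9, Psmd13 and Psme1. On the same strand, Psmd1 overlaps Gm21972, Psme2b overlaps 9930111J21Rik1, Psmg3 overlaps Gm26938 and Psmb5 overlaps Mir686, and their reads may be split or dropped there. Whether the counting used strand is not given in the sources used here. Reads of Psme2 and its near copy Psme2b may be split between them.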

How the data were processed

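The authors deposited whole-number UMI counts of 17168 genes in 11640 cells and a cell table with library, class and cluster. That table's mitochondrial percent is also the authors' own. The submitters' processing notes name Cell Ranger 5.0.1, Seurat 4.0 and mm10, but settings and filters are not given in the sources used here. Genes over 200 UMIs in libraries 1 and 2 and none in library 3 numbered 137. No member was among them, and AI314180, listed as Ecpas in library 3, was merged with it. Members and lists were chosen with earlier results of these data known. All cells were kept in the main analysis, and scrublet (scanpy 1.11.5) marked 84 as doublets, which were left out in an alternative.

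Counts were summed per class or cluster and library, for 8 classes and 12 clusters with at least 20 cells in every library, and tested with edgeR 4.0.16 (R 4.3.3; TMM, filterByExpr, quasi-likelihood F-test) with library as a block. Each class was set against the mean log level of the other 7. Benjamini-Hochberg adjustment ran over 10894 genes (classes) or 10544 (clusters), called under 0.05, and the SE is the absolute log2 fold change over the root of F. A CPM given over the other classes is an arithmetic mean over libraries and classes. The script was tested on simulated data. The pairing is part of the design, since every library holds every class. Deviations of 2 classes from their means correlated within a library at 0.286 to 0.915 (median 0.618, 84 correlations). DESeq2 1.42.0 and limma 3.58.1, the latter on log2(CPM + 1) of 28 cells per class and library, served as alternatives. The 5 called members with the largest rise and fall in each comparison were named, with Psmb5, Psmb6, Psmb7, Psme1 to Psme4 and Psmf1 in any case, and up to 4 of the 30 other pathway genes. Further members are named where they account for a count or a per-library value, chosen after their values were seen.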

Additional observations from a re-analysis of the deposited data

How the results depend on the processing

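Depth limits members under about 50 CPM, such as Psmd5, Psmg2 and Psme4, and classes with few cells, above all cDC in libraries 2 and 3. Among the alternatives run, 4 called values changed sign: Psmg4 in Treg (0.12), Psma2 in B cells (0.08) and Psmd13 in CD4 cells (0.03) in limma at 28 cells per class, and Psma2 in macrophages (−0.07) with library totals. Leaving out 1 library gave 4 to 12 called members in B cells, 2 to 10 in CD4 cells, 0 to 1 in CD8 cells, 12 to 21 in macrophages, 1 to 9 in Mixed cells, 2 in Treg, 10 to 26 in cDC, 1 to 4 in the gamma-delta T, NK and NKT class, 0 to 3 between macrophages and cDC, 1 to 6 for the CD8 pair and 0 to 3 for the CD4 pair. Of all genes, 20.4% to 32.3% were then called in B cells, 16.7% to 23.7% in CD4 cells and 14.8% to 21.8% in CD8 cells. Macrophages had 31.7% to 45.2%, Mixed cells 7.43% to 10.7%, Treg 14.6% to 19.2% and cDC 19.9% to 37.1%. The gamma-delta T, NK and NKT class had 16.0% to 19.2%, macrophages against cDC 7.68% to 19.3%, the CD8 pair 6.13% to 10.4% and the CD4 pair 3.48% to 5.44%. Without the replicate block that pairs classes by library, calls dropped to 1 in B cells, 1 in Mixed cells, 12 in macrophages, 12 in cDC and 0 in every other comparison. Of all genes, 15.4%, 8.07%, 30.1% and 25.2% were then called in these 4 classes, and 0.977% to 9.87% in the other comparisons. Of the named values, 44 lost their call. Percents in brackets from here on are the share of all genes called. With 28 cells per class and library in limma, calls were 3 in B cells (24.9%), 5 in CD4 cells (15.0%) and 5 in macrophages (32.1%). They were 2 in Mixed cells (13.8%), 1 in Treg (15.6%), 10 in cDC (30.0%) and 0 elsewhere (1.08% to 11.1%). That setting changes the tool, the cell number and the genes tested together (3838 genes and 35 members for classes). With library totals in place of TMM, calls were 5 in CD4 cells (36.7%), 3 in Mixed cells (13.7%), 17 in Treg (33.3%) and 15 in cDC (41.2%). There were 5 between macrophages and cDC (19.8%) and 10 for the CD4 pair (7.79%). The median of all genes moved by −0.12 in cDC, 0.12 in Mixed cells, −0.17 between macrophages and cDC and 0.14 for the CD4 pair. Relative log expression factors gave 4 in the gamma-delta T, NK and NKT class (25.2%) and 2 between macrophages and cDC (19.5%). DESeq2 gave 2 in CD8 cells (27.7%), 3 between macrophages and cDC (17.3%), 16 for the CD8 pair (15.3%) and 11 for the CD4 pair (8.45%). With no filter on low counts B cells had 10 (25.6%). Without cluster 5, calls were 6 in CD4 cells (26.8%), 2 in CD8 cells (27.9%) and 11 in Mixed cells (13.9%). The gamma-delta T, NK and NKT class then had 6 (26.1%), and macrophages against cDC 3 (20.0%). Without dividing cells calls were 10 in B cells (37.2%) and 4 in the gamma-delta T, NK and NKT class (24.1%). There were 5 between macrophages and cDC (18.9%) and 3 for the CD8 pair (10.9%). The cause of these shifts was not tested. Without mitochondrial and ribosomal UMIs, the share of member UMIs was 0.970% in cDC, 0.823% in pDC, 0.818% in CD8 cells, 0.814% in Treg, 0.796% in the gamma-delta T, NK and NKT class, 0.755% in CD4 cells, 0.753% in macrophages, 0.725% in Mixed cells and 0.719% in B cells, and in clusters 0, 3, 4, 6, 8 and 9 it was 0.782%, 0.752%, 0.861%, 0.870%, 0.805% and 0.782%. Without cluster 5, an alternative chosen after seeing the data, the share in CD4 cells was 0.570%.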
